A study of Mus musculus with 8 samples.

Results

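The regions described here are the 2220 intervals that the authors deposited as promoter regions of γ-H2AX in wild-type mouse embryonic fibroblasts (MEF). All 2220 listed intervals were taken, and they make up 1.78% of the 124947 γ-H2AX peaks of the same cells. Each listed interval is 1 of those peaks, so the list is a selection of peaks by place. γ-H2AX is the histone variant H2AX phosphorylated at a serine in its tail (H2AXS139ph), a mark that ATM and related kinases place in chromatin around DNA double-strand breaks. A promoter is the DNA at the start of a gene where RNA polymerase II assembles, and a bidirectional promoter lies between the starts of a gene pair transcribed in opposite directions. HMGA2 is a chromatin protein that binds AT-rich DNA through AT-hook motifs, and it is made in embryonic cells.

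The study used chromatin immunoprecipitation with sequencing (ChIP-seq) on 8 libraries, 1 for each antibody or input and each genotype. The cells came from C57BL/6 embryos at E15.5 and were used at passages 2 to 4. Antibodies to H2AXS139ph, to HMGA2 and to ATM, and an input without antibody, were each run in Hmga2 Ko cells and in Hmga2 wt cells. The promoter list and the peaks compared with it below are those of the Hmga2 wt cells, which carried the unmodified gene. With 1 library for each mark there is no replicate, so every interval below covers counting error among regions or genes and says nothing of another culture. The files give peaks and their scores but no reads, so the depth behind a peak is unknown. A score is -10 times the log10 of the peak caller's p, and the lowest score in the γ-H2AX file is 20. All coordinates are mm10, and gene starts are those of the RefSeq annotation of GRCm38.p6, the same assembly.

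The promoters of 6 genes show where in a start the listed γ-H2AX lay. Each is the RefSeq sequence (GRCm38.p6) of 250 bases before to 50 bases after an annotated start, read 5′ to 3′ on the strand of the gene, with the bases inside the listed γ-H2AX region in capitals. Noct had the highest score of the list (chr3:51224197-51224496, plus strand), and Carnmt1 was the only 1 of the 10 highest that was centred inside its gene (chr19:18670509-18670808, plus strand). Atm is the kinase of the mark itself (chr9:53536622-53536921, minus strand). Orc1 is a subunit of the replication origin complex whose start faces that of Prpf38a (chr4:108579204-108579503, plus strand). Mrpl41 is the highest scoring case with the region between the starts of a divergent pair (chr2:24975049-24975348, minus strand). Igf1, a growth factor, has a listed region that also touched an HMGA2 peak (chr10:87860861-87861160, plus strand).
Noct: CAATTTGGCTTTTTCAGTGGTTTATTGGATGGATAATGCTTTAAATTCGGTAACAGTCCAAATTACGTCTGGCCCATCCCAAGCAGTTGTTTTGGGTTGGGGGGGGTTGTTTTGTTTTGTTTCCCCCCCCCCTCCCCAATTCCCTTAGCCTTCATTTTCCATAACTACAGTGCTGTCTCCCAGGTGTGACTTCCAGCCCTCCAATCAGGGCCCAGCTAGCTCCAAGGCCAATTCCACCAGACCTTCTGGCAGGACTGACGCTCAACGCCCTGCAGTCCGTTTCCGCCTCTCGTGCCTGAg
Carnmt1: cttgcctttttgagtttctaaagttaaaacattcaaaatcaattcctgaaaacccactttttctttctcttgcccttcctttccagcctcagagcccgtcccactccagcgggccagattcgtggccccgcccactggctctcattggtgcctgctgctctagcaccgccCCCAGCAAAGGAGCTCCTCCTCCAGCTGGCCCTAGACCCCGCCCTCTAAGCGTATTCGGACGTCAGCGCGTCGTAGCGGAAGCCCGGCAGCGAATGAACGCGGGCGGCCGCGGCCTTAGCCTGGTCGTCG
Atm: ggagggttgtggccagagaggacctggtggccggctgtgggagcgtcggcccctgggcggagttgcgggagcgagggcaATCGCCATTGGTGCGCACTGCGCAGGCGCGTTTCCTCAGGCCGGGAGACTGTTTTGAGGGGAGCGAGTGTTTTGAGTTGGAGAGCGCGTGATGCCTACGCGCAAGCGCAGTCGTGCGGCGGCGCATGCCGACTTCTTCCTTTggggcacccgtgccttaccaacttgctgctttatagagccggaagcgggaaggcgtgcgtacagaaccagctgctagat
Orc1: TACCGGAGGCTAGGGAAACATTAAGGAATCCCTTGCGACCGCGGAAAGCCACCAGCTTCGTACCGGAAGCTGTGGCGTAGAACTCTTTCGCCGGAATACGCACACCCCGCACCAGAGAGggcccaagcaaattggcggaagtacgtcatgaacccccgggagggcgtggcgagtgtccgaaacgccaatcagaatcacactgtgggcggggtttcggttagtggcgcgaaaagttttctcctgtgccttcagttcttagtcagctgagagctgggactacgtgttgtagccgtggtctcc
Mrpl41: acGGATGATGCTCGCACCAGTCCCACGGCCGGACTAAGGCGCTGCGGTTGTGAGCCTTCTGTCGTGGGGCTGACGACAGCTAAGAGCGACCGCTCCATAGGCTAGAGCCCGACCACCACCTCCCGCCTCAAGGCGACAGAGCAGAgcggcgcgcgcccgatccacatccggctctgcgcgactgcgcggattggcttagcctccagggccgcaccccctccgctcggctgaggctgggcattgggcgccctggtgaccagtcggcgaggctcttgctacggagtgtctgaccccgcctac
Igf1: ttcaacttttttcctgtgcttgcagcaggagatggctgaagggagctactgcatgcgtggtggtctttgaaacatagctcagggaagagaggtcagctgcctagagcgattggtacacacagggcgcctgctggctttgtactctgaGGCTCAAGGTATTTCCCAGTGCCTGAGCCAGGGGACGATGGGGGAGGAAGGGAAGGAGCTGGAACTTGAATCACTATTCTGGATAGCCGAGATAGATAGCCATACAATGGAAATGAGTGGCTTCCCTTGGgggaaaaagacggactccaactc

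The share of each promoter taken up by the region differed among these genes. At Noct 299 of the 300 bases were inside the region, which was 519 bp wide. At Mrpl41 143 bases, at Atm 142, at Carnmt1 and Igf1 130 each and at Orc1 119 were inside. The capitals run across the annotated start, which is base 251 of each sequence, at Noct, Carnmt1 and Igf1. They end before it at Atm, Orc1 and Mrpl41. Of the 2220 regions, 640 touched such a 300-base promoter of a coding gene, so these examples do not stand for the whole list. The rest include 328 regions at coding genes without a start at hand, whose distance from the start is not known.

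The listed regions sat at the starts of protein-coding genes. An annotated coding start lay within 1 kb of 1668 of the 2220 regions (75.1%, 95% Wilson interval 73.3 to 76.9%), against 1828 of the 122727 unlisted γ-H2AX peaks (1.49%). A further 328 regions (14.8%) lay within 1 kb of an end of a coding gene for which no start or strand was at hand. Another 84 regions (3.78%) lay at the start of a non-coding gene and 76 (3.42%) at an end of some other annotated gene. Inside a coding gene and away from any gene end lay 59 regions (2.66%), and 3 lay outside coding genes. The far end of a coding gene was the only feature of 2 regions, whereas 1512 unlisted peaks were of that kind.

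Where the strand was known, starts could be set against far ends. Among peaks within 1 kb of an outer end of a coding gene, 1446 of 1464 listed ones (98.8%) were at a start, against 1390 of 2938 unlisted ones (47.3%). The difference was 51.5 percentage points (95% Newcombe interval 49.5 to 53.3). With starts inside the gene counted too, in both sets, 1668 of 1686 listed regions (98.9%) and 1828 of 3376 unlisted peaks (54.1%) were at a start, 44.8 points apart (43.0 to 46.5). A list deposited as promoter regions lies at starts by choice, so these differences describe the selection.

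The listed regions lay mainly before the start. Among the regions within 1 kb of a coding start, the centre had a median distance of -303.5 bp (quartiles -584 and -17), where negative distances lie before the gene. Of these 1668 regions, 1287 (77.2%) were centred before the start, against 443 of 1828 unlisted peaks at a start (24.2%). The unlisted peaks had a median distance of 513 bp, inside the gene. Both contrasts are largely fixed by the selection, since the list takes in most peaks shortly before a start and few farther inside a gene, as shown next. They do not show that γ-H2AX itself favoured the side before the start.

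The list had sharp edges. No peak of the 137 centred between -1100 and -1001 bp of the nearest coding start was listed, which allows a share of up to 2.19% (3 counts of the total). Of the 118 peaks centred between -1000 and -901 bp, 65 (55.1%) were listed. The share was 73.9% between -1000 and -501 bp, 84.8% between -500 and -1 bp and 86.3% between 0 and 100 bp. In the next 100 bp, from 101 to 200 bp, it was 43 of 118 peaks (36.4%). Farther out it was 9 of 1084 peaks between -2000 and -1001 bp and 20 of 1429 between 1001 and 2000 bp. A window from -1000 to 100 bp around any coding start, chosen here after these shares were seen, held 1603 of the 1668 listed regions at a coding start (96.1%). In the same window 1603 of all 1988 γ-H2AX peaks were listed (80.6%, 78.8 to 82.3%). The number of γ-H2AX peaks itself, summed over all coding genes, changed less across these edges. Per kb of distance it was 1084 peaks between -2000 and -1001 bp, 1798 between -500 and -1 bp and 1584 between 101 and 1000 bp. Right at the gene-side edge it also fell, from 187 peaks between 1 and 100 bp to 118 between 101 and 200 bp. Of these, 161 and 43 were listed.

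**Figure D1:**
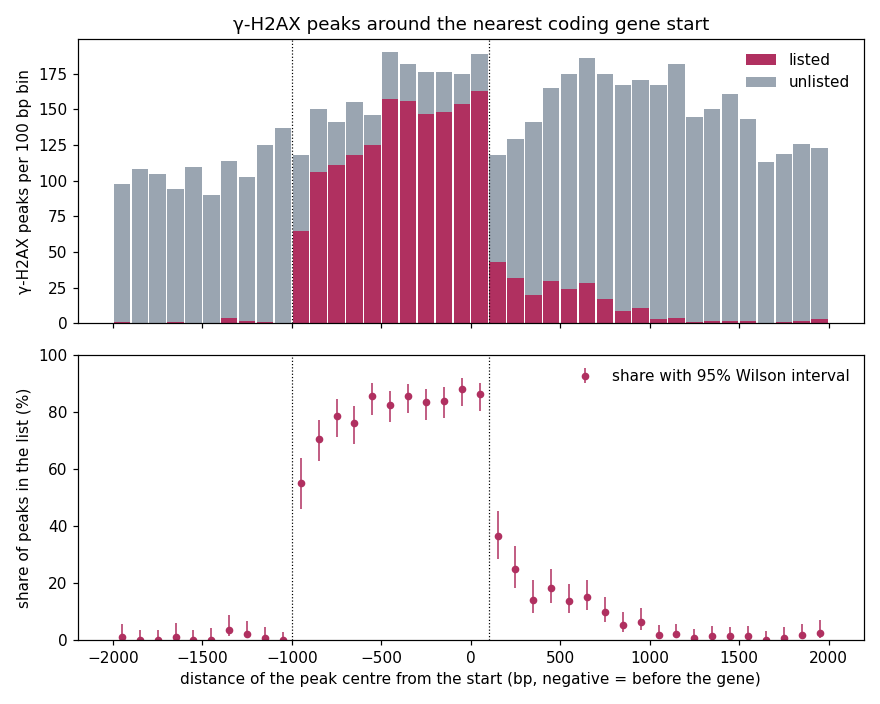
γ-H2AX peaks by the distance of their centre from the nearest coding gene start, in 100 bp bins; the upper panel stacks listed peaks (red) under unlisted peaks (grey), and the lower panel gives the share of each bin's peaks that is listed, with its 95% Wilson interval. Dotted lines mark -1000 and 100 bp, outside which the share drops to 0 of 137 peaks on the far side and 43 of 118 on the gene side.

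In that window the listed peaks outnumbered the 385 unlisted ones, and the genes next to them differed in annotation. All 1603 listed peaks had a nearest coding gene with a curated RefSeq transcript, against 360 of 385 unlisted peaks (93.5%), a difference of 6.49 points (4.42 to 9.41). A predicted-gene symbol belonged to the nearest gene of 42 listed peaks (2.62%) and of 37 unlisted ones (9.61%). The nearest start was the outermost start of its gene for 77.4% of listed and 76.4% of unlisted peaks, a difference of 1.05 points whose interval holds 0 (-3.44 to 5.96). How the authors chose the list was not stated in the sources used here.

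The highest scores of the list were found at single genes of varied roles. Noct, a rhythmically expressed NADP(H) phosphatase, scored 69.2 with its region centred at -211 bp. Snrpa1, which encodes a protein of the U2 small nuclear ribonucleoprotein of the spliceosome, scored 55.81 at -243 bp. Carnmt1, the carnosine N-methyltransferase, scored 54.26 at 11 bp. Ube2m, the enzyme that conjugates the ubiquitin-like protein NEDD8 to cullins, scored 53.1 at -790 bp. Trdmt1, a tRNA cytosine methyltransferase, scored 51.91. Zswim4 scored 53.78 at -185 bp. Of the 10 highest, the others being Alg9, Sesn2, Ints1 and Lurap1l, 9 were centred before the start and none touched an HMGA2 or an ATM peak.

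Most listed regions were close to the lowest score called. Scores of 20 to under 25 were held by 1318 regions, scores of 25 to under 30 by 598, and scores of 30 or more by 304 (13.7%). A score of 40 or more was reached by 74 regions (3.33%) and a score of 50 or more by 12. The median score was 24.09 (quartiles 21.53 and 27.3), against 23.75 (21.53 and 26.9) for the 3676 unlisted peaks within 1 kb of a coding gene end. The difference of medians was 0.34 (0.01 to 0.54, from the order-statistic intervals of both medians). Set against the unlisted peaks at coding starts alone, with a median of 23.91, the difference was 0.18 and its interval held 0 (-0.16 to 0.45).

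At a score of 40 or more the upper tail differed in the same way. A score of 40 or more was held by 3.33% of listed regions and by 82 of the 3676 unlisted peaks at coding ends (2.23%), 1.10 points apart (0.25 to 2.04). Against unlisted peaks at coding starts (2.79%) the difference was 0.54 points (-0.55 to 1.61). At 50 or more it was 12 listed regions (0.54%) and 10 unlisted peaks at coding ends (0.27%), 0.27 points apart with an interval that held 0 (-0.06 to 0.69). Among unlisted peaks in the window 4 of 385 (1.04%) reached 50. Single unlisted peaks at starts scored as high as the top of the list. Rbms3, an RNA-binding protein gene, had an unlisted peak of 70.91 at 402 bp, outside the window. Ston1 had one of 56.4 at -753 bp, the highest unlisted score inside the window. Tmcc2 had one of 51.91 at -36 bp and Anapc5, a subunit of the anaphase-promoting complex, one of 51.14 at -144 bp, both inside it too.

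**Figure D2:**
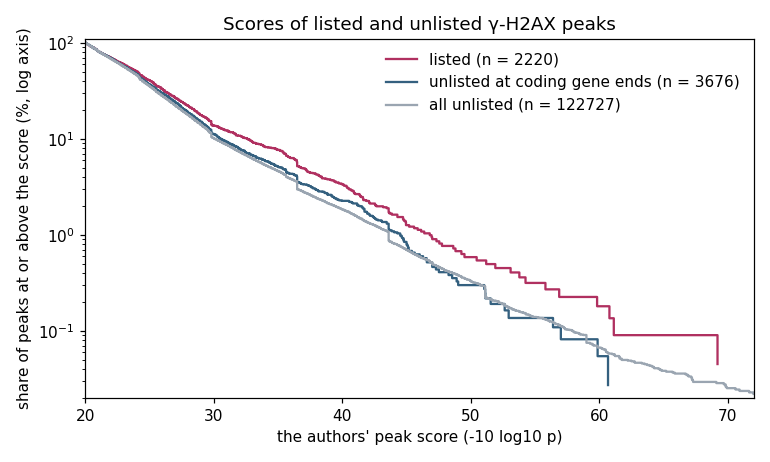
Share of γ-H2AX peaks at or above each score (log axis) for the 2220 listed regions (red), the 3676 unlisted peaks at coding gene ends (blue) and all 122727 unlisted peaks (grey). The 3 curves start together at 20, and at 40 they hold 3.33%, 2.23% and 1.84% of their peaks.

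The regions were narrow. The median width was 171 bp (quartiles 156 and 192), against 169 bp for unlisted peaks at coding ends and 171 bp for those at coding starts, and all listed regions together covered 400379 bp. Only 4 regions were 500 bp or wider, and they are named here after their widths were seen. The widest spanned 3047 bp at chr1:88276182-88279228, across the start of Hjurp, the chaperone that loads the centromeric histone, with a score of 46.81. The region at A530032D15Rik was 995 bp wide and touched an ATM peak. That at Noct was 519 bp, and a region of 515 bp lay 1118 bp inside the predicted gene Gm40367.

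Divergent gene pairs, in which a minus-strand start lies at or left of a plus-strand start within 1 kb, held more listed regions than the rest of the coding genes. Of the 17492 coding genes with a start, 1712 (9.79%) were in such a pair, and 355 of them had a listed region (20.7%, 18.9 to 22.7%), against 1405 of the 15780 genes outside a pair (8.90%, 8.47 to 9.36%). A gene in a pair can be reached by the region of its neighbour, so the 2 shares do not rest on equal lengths of DNA. Counted over regions, 190 of 1668 listed regions at a coding start lay within 1 kb of both starts (11.4%), against 39 of 1828 unlisted peaks at a start (2.13%), 9.26 points apart (7.63 to 11.0). This contrast is largely fixed by where the list lies, since all 190 listed and 27 of the 39 unlisted peaks at both starts were centred in the window of 1 of them, and most unlisted peaks at a start were not. Inside the window from -1000 to 100 bp the shares were 190 of 1603 listed (11.9%) and 27 of 385 unlisted peaks (7.01%), 4.84 points apart (1.49 to 7.56). A peak at a pair can lie in the windows of 2 starts and so have 2 genes through which it could be listed. This was not corrected for, so the difference does not show that γ-H2AX favoured pairs.

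Few of the regions at pairs were centred in the gap, which is mostly short beside the 1 kb within which a region counts as at a start. Whether regions avoided the gap was not tested. The 172 pairs with a listed region had a median of 90 bp between their starts, against 101 bp for all 864 pairs, and 20 of the 190 regions were centred between the starts. The other 170 were centred inside 1 gene of the pair and before the start of the other. Of the 217 listed regions centred more than 100 bp inside the nearest coding gene, 110 (50.7%) were at a pair, against 7 of 525 (1.33%) centred between -1000 and -501 bp. This contrast is largely fixed by where the list lies and by the short gaps. The former 110 lay in the window of the paired start, whereas a peak that far inside a gene is otherwise mostly outside the listed window. A region far before its nearest start can mostly be at a pair only where the gap is wide.

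The highest scoring region at a pair, 47.33, was centred 860 bp inside Capza1, which encodes a subunit of the actin capping protein, and at -861 bp of St7l. Rps6kb1, the S6 kinase downstream of mTOR, faces Tubd1, the delta-tubulin gene, and their region scored 45.87 at -189 bp of Rps6kb1 and 83 bp inside Tubd1. Coa5, a cytochrome c oxidase assembly factor, and Unc50 shared a region of 44.29. The region of Nln, the peptidase neurolysin, and Sgtb scored 41.63 and was centred 817 bp inside Nln. Polh, the translesion DNA polymerase eta, and Xpo5, the exporter of pre-miRNA, shared a region of 40.86, centred 601 bp inside Polh. Tnfaip1 shared 38.39 with Ift20, a ciliary transport protein. Shld3, a subunit of the shieldin complex, and Trappc13 both face Trim23, and the region of 38.27 there lay 442 bp inside Trim23. Fkbp15 and the copper transporter gene Slc31a1 shared 37.52, and Atp5h, an ATP synthase subunit gene, and Kctd2 shared 37.34. Of these 10, 9 were inside a gene of the pair. The exception was Mrpl41 and Pnpla7, a lysophospholipase gene, whose starts are 892 bp apart and hold a region of 37.46 and another of 20.38.

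Several well known pairs shared a region of lower score. Atm and Npat, the histone gene transcription coactivator, have starts 61 bp apart, and their region of 25.33 was centred 57 bp inside Atm from the paired start, which lies upstream of the start printed above. Mrpl46 and Mrps11, proteins of the large and small subunits of the mitochondrial ribosome, shared a region of 21.98. Col4a1 and Col4a2, the chains of type IV collagen, start head to head with overlapping ends and so are no pair by the definition above; a region of 20.99 lay 931 bp inside Col4a1 and at -910 bp of Col4a2.

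**Figure D3:**
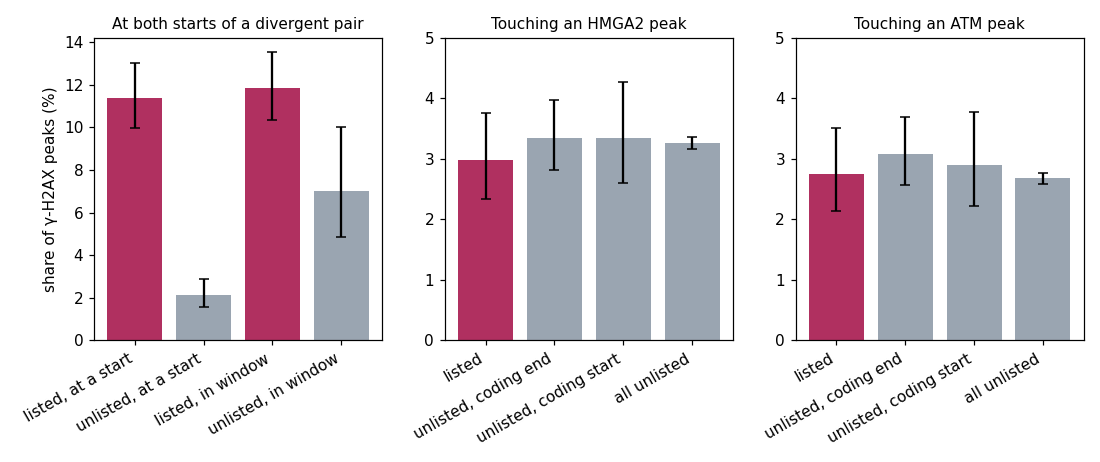
Share of γ-H2AX peaks at both starts of a divergent pair (left), touching an HMGA2 peak (middle) and touching an ATM peak (right), for listed (red) and unlisted peaks (grey), with 95% Wilson intervals. In the window from -1000 to 100 bp the listed share at pairs is 11.9% and the unlisted 7.01%, not corrected for peaks that lie in the windows of 2 starts. The wider gap among all peaks at a start, 11.4% and 2.13%, follows largely from that window. The HMGA2 and ATM shares of all sets lie between 2.68% and 3.35%.

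HMGA2 and ATM peaks touched few of the regions, at shares that could not be told apart from those of other γ-H2AX peaks near genes. An HMGA2 peak touched 2.97% of listed regions, against 123 of 3676 unlisted peaks at coding ends (3.35%), a difference of -0.37 points (-1.26 to 0.58). An ATM peak touched 61 listed regions (2.75%) and 113 unlisted ones (3.07%), a difference of -0.33 points (-1.18 to 0.59). Over all 124947 γ-H2AX peaks the shares were 3.26% for HMGA2 and 2.68% for ATM.

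The regions that HMGA2 touched had scores and places near those of the rest. Their median score was 24.4 (quartiles 21.8 and 27.7) and 47 of the 66 were at a coding start, against a median of 24.1 and 1581 of 2096 for regions that neither protein touched. The highest, chosen with the values in view, were at Ifitm2, an interferon-induced membrane protein gene, with a γ-H2AX score of 44.93 and an HMGA2 score of 21.24, and at Mto1, a mitochondrial tRNA modification gene, with 38.43 and 26.98. Igf1 and the immediate early gene Ier3 were among the 66, with γ-H2AX scores of 27.65 and 23.02. For ATM the highest were at Tgif1, a repressor of TGF-β targets, with a γ-H2AX score of 43.61, and at A530032D15Rik with 40.02. Ptgs2, the inducible cyclooxygenase gene, scored 36.76 for γ-H2AX and 31.73 for ATM at -604 bp.

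Both an HMGA2 and an ATM peak touched 3 listed regions, and each of the 3 also touched a region of the ATM promoter list. Over the whole list 61 regions touched an ATM peak and 49 a region of the ATM promoter list, so this does not set the 3 apart. The HMGA2 and ATM peaks shared bases with each other at Cse1l alone. Cse1l, the export receptor of importin alpha, had a γ-H2AX score of 26.65, an HMGA2 score of 23.96 and an ATM score of 22.61 at chr2:166905312-166905446. Hipk2, a kinase that phosphorylates p53, had 22.14, 21.09 and 23.42 at -745 bp. Tnpo2, a transportin gene, had 20.38, 21.24 and 21.38 at -288 bp. Among unlisted peaks at coding ends, 7 of 3676 were touched by both proteins (0.19%), against 0.14% of the list.

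Counted over genes, the pattern depended on the genes set beside the list. A coding gene counts as listed when a listed region lies within 1 kb of its start, or of either end where no start is given. By this rule 2137 of 21887 coding genes were listed (9.76%), made up of 10.1% of the genes with a start and 8.58% of those without. Any γ-H2AX peak lay at 19.7% of coding genes, an HMGA2 peak at 12.9%, an ATM peak at 11.9% and a region of the ATM promoter list at 3.76%. An HMGA2 peak lay at the start of 380 listed genes (17.8%), against 2444 of the 19750 other coding genes (12.4%), 5.41 points apart (3.78 to 7.15). Against the 2166 genes that had unlisted γ-H2AX peaks alone, of which 428 had an HMGA2 peak (19.8%), the difference was -1.98 points (-4.31 to 0.36). For ATM the shares were 14.2% of listed genes, 15.7% of genes with unlisted peaks alone and 11.7% of the other coding genes. Listed genes had 1.78 annotated starts on average, genes with unlisted peaks alone 1.89 and all genes outside the list 1.59, and a gene with more starts offers more room for a peak of any protein.

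Promoters of listed genes were richer in CpG than those of other genes. The ratio of observed to expected CpG, which is near 1 in unmethylated CpG islands and low where methylation has removed CpG, had a median of 0.736 (quartiles 0.514 and 0.903) over 1760 listed genes. It was 0.698 over 1525 genes with unlisted peaks alone at the start and 0.505 over 14207 genes without a γ-H2AX peak there. The difference of medians was 0.04 from the genes with unlisted peaks (0.01 to 0.07) and 0.23 from those without a peak (0.21 to 0.25). A ratio under 0.4 was found for 334 listed genes (19.0%), 390 genes with unlisted peaks alone (25.6%) and 6214 genes without a peak (43.7%).

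Split by this ratio, the share of genes on the list was 3.75% in the lowest of 4 equal sets of promoters ranked by it (3.23 to 4.36%), 7.98% in the next, 14.3% in the one above and 14.2% in the highest. Outside divergent pairs the 4 shares were 3.53%, 7.87%, 12.8% and 12.6%, in the same order. Listed genes in a pair had a median ratio of 0.837, against 0.706 for listed genes outside one. The printed sequences show the range: the ratio was 0.978 at Orc1, 0.957 at Atm, 0.897 at Mrpl41 and 0.886 at Carnmt1, against 0.355 at Noct and 0.307 at Igf1. The top-scoring region of the list thus lay at a CpG-poor promoter. 

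**Figure D4:**
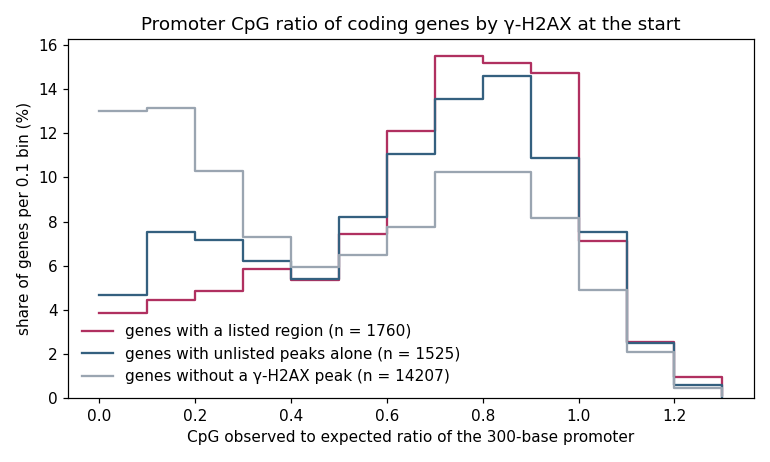
Distribution of the CpG observed to expected ratio of the 300-base promoter over genes with a listed region (red, n = 1760), genes with unlisted γ-H2AX peaks alone (blue, n = 1525) and genes without a γ-H2AX peak at the start (grey, n = 14207), as the share of genes in each 0.1 bin. The grey curve has a large group below 0.4, with 43.7% of its genes, against 19.0% for the red curve.

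Short sequence motifs were counted on either strand of the same 300 bases, where a match is a string of letters and not a shown binding site. The GC box core GGGCGG was in 57.0% of listed promoters, 57.0% of those with unlisted peaks alone and 45.9% of all 17492. The TATA box string TATAAA was in 9.09%, 9.38% and 13.4% of the same sets. CCGGAAG, the core bound by ETS factors, was in 19.8% of listed promoters, 14.9% of those with unlisted peaks alone and 11.8% of all, and it differed between the listed genes and those with unlisted peaks by 4.89 points (2.29 to 7.46). CCAAT was in 41.8%, 38.4% and 39.2%, and TGACGT, a core of cyclic AMP response elements, in 11.3%, 9.05% and 8.59%. The E-box CACGTG was in 10.0%, 8.46% and 7.80%. GCGCATG, part of the NRF1 element, was in 6.70%, 6.89% and 4.87%, and TGANTCA, the AP-1 site, in 6.08%, 5.77% and 7.04%. In the promoters printed above a script found 4 matches of CCAAT and none of the other 7 strings at Noct, 4 of GGGCGG at Carnmt1, and 1 each of CCGGAAG at Atm and Orc1. The strings were searched independently, so matches of different strings can share bases, and a missing match says only that these letters are not in the 300 bases.

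The share of genes on the list varied among gene classes, read here against 9.76% of all coding genes. Of 40 classes, the Wilson interval of 11 lay above 9.76%, that of 5 lay below it and that of 24 held it. γ-H2AX peaks of any kind, listed or not, varied among classes in the same direction. Such a peak lay at 17 of 35 general transcription genes, 15 of 40 DNA damage genes and 30 of 85 cytoplasmic ribosomal protein genes. It lay at 54 of 1110 olfactory receptors, against 19.7% of all coding genes. The class differences are therefore not shown to be particular to the list. General transcription factors and Integrator subunits had 10 listed of 35 (28.6%, Wilson interval 16.3 to 45.1%). They were Ints1, the scaffold of the Integrator complex, with a score of 59.83, Gtf2b, the factor TFIIB, with 28.42 at -639 bp, Gtf2f1 with 27.78 at -19 bp, Gtf2e1, Gtf2a1, Ints4, Ints6, Ints7, Ints12 and the histone chaperone gene Ssrp1. Mediator, which links activators to RNA polymerase II, had 6 of 30 (20%, an interval of 9.51 to 37.3% that holds 9.76%), with Med1 highest at 39.35 and 46 bp.

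Genes of the DNA damage response had 10 listed of 40 (25%, 14.2 to 40.2%). Ercc1, part of the nuclease of nucleotide excision repair, scored 35.92 and was centred 255 bp inside the gene. Xpa, the damage verification factor of the same pathway, scored 35.78 at -209 bp. Fancm, a helicase-like translocase of the Fanconi anaemia pathway, shared its region of 32.93 with Fkbp3, and an ATM peak touched that region. Trp53bp1, which binds chromatin at double-strand breaks, scored 32.65 at -164 bp. The other 6 were Atm, Rpa1, Palb2, Chek2, Mre11a and Rad52, with scores between 20.8 and 25.33. Of the 30 members with a start, 11 were in a divergent pair (36.7%, against 9.79% of all genes), and outside pairs 5 of 19 were listed. Genes of DNA replication had 6 of 26 (23.1%), with Orc2 at 40.53, Orc1 at 33.06 and Cdt1, the licensing factor, at 27.05. Targets of p53 had 5 of 22 (22.7%), led by Sesn2, a stress-induced inhibitor of mTORC1, with 60.79, and Pmaip1, the apoptosis gene Noxa, with 30.67. Of these 5, Pmaip1, Rrm2b and Ddb2 have no start given and count through either gene end, and over the members with a start 2 of 16 were listed (12.5%, 3.50 to 36.0%).

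Ribosomal protein genes were on the list at like shares for both kinds of ribosome. Mitochondrial ribosomal proteins had 18 of 78 (23.1%, 15.1 to 33.6%), with Mrpl15 at 39.71 and Mrpl41 at 37.46, and 37.7% of those with a start were in a divergent pair. Cytoplasmic ribosomal proteins had 18 of 85 (21.2%, 13.8 to 31.0%), with Rpl10 at 41.87 and Rps13 at 41.01. Aminoacyl-tRNA synthetases had 7 of 34 (20.6%), of which Hars and Hars2 share a single region of 30.38. Ubiquitin-conjugating enzymes and peptidases had 17 of 93 (18.3%), with Ube2m first. Kinesins had 8 of 42 (19.0%), led by Kif11, the motor of the bipolar spindle, with 41.44. Over members with a start, the intervals of the kinesins (6 of 33, 8.61 to 34.4%) and the tRNA synthetases (5 of 24, 9.24 to 40.5%) held 9.76%. Cell cycle genes had 6 of 30 (20%, an interval of 9.51 to 37.3% that holds 9.76%), among them Aurkb with 29.58 and Ccnd2 with 26.67. The Zfp zinc finger genes had 60 of 397 (15.1%, 11.9 to 19.0%), of which 1 of the 20 members in a divergent pair was listed. Replication-dependent histone genes had 11 of 62 (17.7%), in clusters where 1 region can reach 3 genes. Other core classes had intervals that hold 9.76%: translation initiation factors with 9 of 56 (16.1%), splicing factors with 6 of 32 (18.8%), proteasome subunits with 6 of 46 (13.0%), respiratory complex I with 5 of 40 (12.5%), DEAD and DEAH box helicases with 6 of 53 (11.3%), centromere proteins with 3 of 21 (14.3%) and housekeeping genes with 3 of 20 (15%). Zfp, histone and ribosomal protein genes have near-identical copies, and how the authors placed reads that match several copies is not given in the sources used here.

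Olfactory receptors, vomeronasal receptors, voltage-gated ion channel subunits, keratins and beta-defensins were the 5 classes whose interval lay below 9.76%. Olfactory receptors had 2.25% of 1110 genes listed (1.53 to 3.30%), led by Olfr1308 with 36.49. Vomeronasal receptors had 16 of 353 (4.53%), of which Vmn1r11 scored 43.61 at -57 bp. Voltage-gated ion channel subunits had 2 of 134 (1.49%), Kcnj16 with 24.73 and Cacng3 with 21.98. Keratins had 3 of 109 (2.75%) and beta-defensins 1 of 73 (1.37%). The median CpG ratio was 0.107 for olfactory and 0.118 for vomeronasal promoters, against 0.905 for DNA damage and 0.950 for general transcription genes, so CpG content moved with the class, and its part in the class shares was not tested. Receptor genes of these families also resemble each other in sequence.

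Signalling and developmental classes could not be told apart from the share of all genes at this size. TGF-β and BMP signalling had 2 of 24 (8.33%), Id2 with 29.81 and Id1 with 22.09. Wnt signalling had 2 of 24, Lef1 with 36.49 and Tcf7l2 with 29.81. Insulin, IGF and mTOR signalling had 2 of 25 (8%), Rps6kb1 and Igf1. Immediate early genes had 2 of 20 (10.0%), Jun with 26.53 at 43 bp and Ier3. Chromatin modifiers had 6 of 42 (14.3%), led by Suz12, a Polycomb subunit, with 28.28 and Setd1a, an H3K4 methyltransferase, with 27.78. Solute carriers had 36 of 375 (9.60%), and collagens 3 of 44 (6.82%). Hox genes had 1 of 39 (2.56%, 0.45 to 13.2%), which was Hoxc12 with 20.94.

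Marker genes of the cells were too few for more than a count. Fibroblast and matrix markers had 2 of 15 listed, S100a4 with 31.73 and Prrx1, a mesenchymal homeobox gene, with 21.44. Epithelial markers had 2 of 8, Krt18 with 24.89 and Cldn4 with 21.83. None of the 8 neuronal, the 8 blood cell and the 8 endothelial markers was listed, which allows a share of up to 37.5% in each. A γ-H2AX region does not measure expression, so these counts do not test the labelled cell type.

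**Figure D5:**
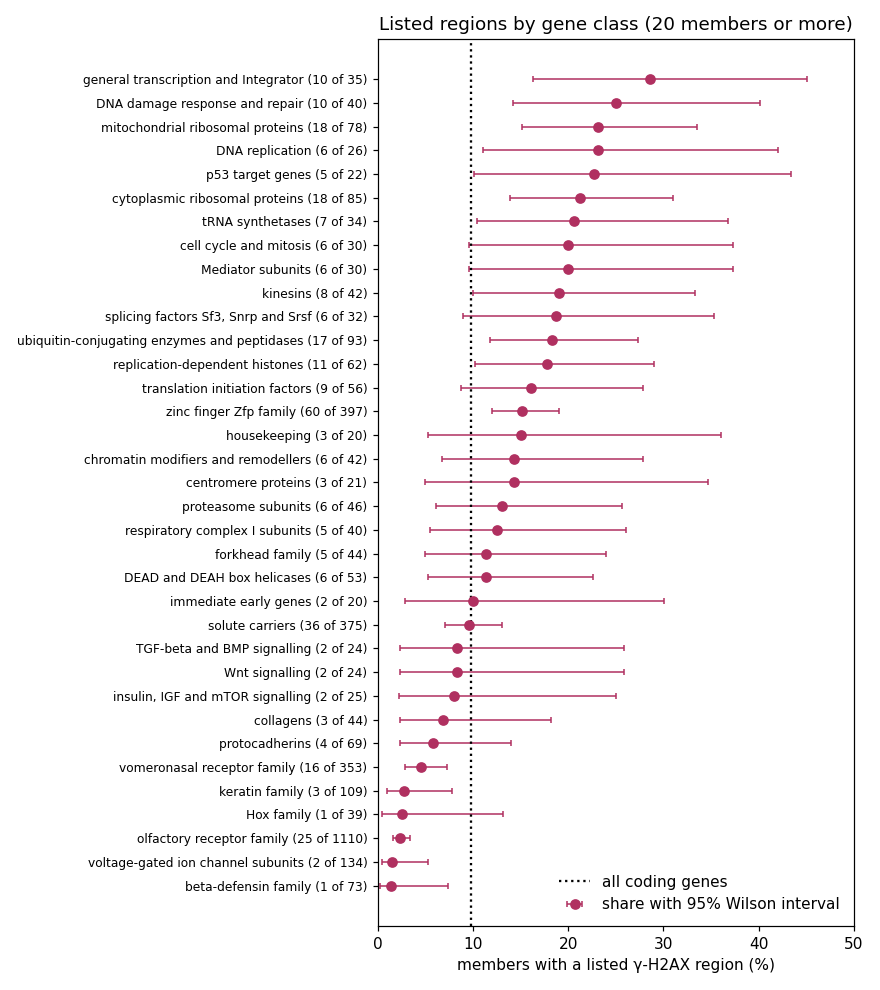
Share of the coding genes of each class that had a listed region, with its 95% Wilson interval, for classes of 20 members or more; the dotted line is the 9.76% of all coding genes. General transcription (10 of 35) and DNA damage genes (10 of 40) stand at the top, and olfactory receptors (25 of 1110), ion channels and beta-defensins at the bottom.

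Most listed genes had a single region. Of the 1760 listed genes with a start, 1633 had 1 region, 119 had 2 and 8 had 3 or more. Sgms1, a sphingomyelin synthase gene, had 4, in pairs at -174 and -497 bp of an inner start and at -55 and -222 bp of an outer start. Asb6 had 3 at -135, -622 and -849 bp, and Josd1, a deubiquitinase gene, 3 at -467, -685 and -906 bp. The other genes with 3 were the histone gene H3c13, Isca2 with Npc2, and Mrpl48 with Rab6a, where both genes shared the same 3 regions each time. Isca2 and Npc2 are a divergent pair, whereas Mrpl48 and Rab6a are no pair by the definition above. At 53 genes regions were centred both before a start and inside it. Each was measured from its own nearest start of the gene, so the start was not always the same one. In the other direction, 1447 of the 1668 regions at a start served 1 gene, 214 served 2 and 7 served 3 or more.

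The list also held non-coding genes and some places far from coding genes. A listed region lay within 1 kb of an end of 317 of 12727 lncRNA genes (2.49%), 52 of 1228 miRNA genes (4.23%) and 34 of 1340 snoRNA genes (2.54%). For pseudogenes it was 12 of 9944 (0.12%), and for those annotated as transcribed, a separate class, 23 of 485 (4.74%). The share of coding genes by the same measure was 9.03%. For 183 of the 317 lncRNA genes, but for 10 of the 52 miRNA genes, such a region was also at a coding start. The highest scores at non-coding genes alone were 47.76 at E130018N17Rik, 44.96 at 1700113A16Rik and 40.89 at LOC115487884 and Snhg15, a host gene of small nucleolar RNA. Farthest from any coding end were a pair of regions at Gm6634, the nearer one 778404 bp away, followed by 4930567J20Rik, Mir344d-2 and Trav3-3, a T cell receptor segment, with scores between 20.1 and 21.83 over all 5 regions.

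By chromosome, the X stood apart from the autosomes. It held 40 listed regions (1.80% of the list), against 4.51% of all unlisted peaks, a difference of -2.71 points (-3.20 to -2.06). Of its 966 coding genes, 3.21% had a listed region at an end, against 12.2% on chromosome 19, 11.5% on chromosome 11 and 6.35% on chromosome 14, the lowest autosome. Beside unlisted peaks at coding ends, of which 2.39% were on the X, the difference was -0.59 points and its interval held 0 (-1.32 to 0.19). None of the 100 γ-H2AX peaks on the Y was listed, which allows a share of up to 3% by the same limit.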

How the data were processed

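γ-H2AX (H2AXS139ph), HMGA2 and ATM ChIP-seq in Hmga2 wt MEF were analysed, 1 library each. Per the labels' protocols, peaks were called with MACS14 without a model, with 30 bp as shift size and 0.01 as the p threshold. Trimmomatic, Bowtie2, SAMtools, MACS, HOMER and mm10 are named, without versions, in the submitters' processing notes. The control library of each call is not given in the sources used here. The peak files hold the authors' score, deposited per peak. The promoter lists hold chromosome, start and end as deposited, with starts counted from 1.

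Each listed interval was matched to the identical γ-H2AX peak. Overlap means at least 1 bp. Gene ends came from RefSeq (GRCm38.p6), and starts with strand from its promoter table, which matched 17492 of 21887 coding genes. The starts of such a gene were those of the table and its outer 5′ end, so a gene can have several. Per gene, the 300-base promoter of the outer start was used, or, where the table lacks it, as for Atm, that of the table start lowest by coordinate. No genome was used, so exons, introns and UTRs were not assigned. Predicted-gene symbols are those of the form Gm with a number or ending in Rik.

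Shares carry 95% Wilson intervals, differences of shares Newcombe intervals and medians order-statistic intervals; no p was computed, since regions are not replicates. The steps were tested on simulated data. The regions, the 16 gene lists and 24 symbol families, the tests and the genes named were chosen with earlier results of these data known. Genes were named by rule: the highest scores of the list, of divergent pairs, of each class, of non-coding genes and of unlisted peaks at starts, all regions touched by HMGA2 and ATM, the genes with the most regions and the regions farthest from coding genes. Further members of a class and the well known pairs were named after their values were seen. Alternatives changed windows, overlaps, score minimum, gene sets and the unlisted peaks compared. Python 3.11.15, pandas 2.3.3, numpy 2.4.6, scipy 1.17.1 and matplotlib 3.10.9 were used.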

Additional observations from a re-analysis of the deposited data

How the results depend on the processing

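No paired analysis was possible because each antibody has 1 library per genotype and no test across samples was made; for the same reason no replicate could be left out. The excess of starts over far ends and of divergent pairs among listed regions kept its direction, with an interval that excludes 0, under all alternatives tried for it. This stability adds little, since both are largely fixed by the choice of promoter regions and by where the list lies. Inside the window from -1000 to 100 bp the excess of divergent pairs was 4.84 points (1.49 to 7.56), not corrected for peaks that lie in the windows of 2 starts. With a window of 500 bp the share of listed regions at a coding start was 53.1% and the share of coding genes listed 6.87%; with all annotated genes the first was 79.6%, and with either gene end the second was 9.03%. The intervals of the small differences in score and width held 0 against unlisted peaks at coding starts (0.18 in score, 0 bp in width) and against unlisted peaks in the window from -1000 to 100 bp (0.13 and 1 bp), a window chosen after seeing the data; among peaks of score 30 or more the width difference was 6 bp, also not apart from 0. The HMGA2 difference turned to 0.64 points against peaks in the window. The ATM difference turned to 0.19 points with at least 50% of the region covered, 0.26 with scores of 30 or more, 0.069 against all other peaks and 0.67 against peaks in the window, and every one of these HMGA2 and ATM intervals held 0. In GC percent the promoters of listed genes were 0.67 points above those with unlisted peaks alone, with an interval that holds 0. Against those same genes, a set added after seeing the data, the motif differences were -0.29 points for TATAAA, 0.0050 for GGGCGG, 1.54 for CACGTG, 0.31 for TGANTCA and -0.18 for GCGCATG, and the intervals of these 5 held 0. Against all other coding genes they were -4.77, 12.3, 2.45, -1.07 and 2.05. The cause of these changes was not tested. Of 160 class shares recomputed, 149 stayed within the interval first given, and at 500 bp 29 of the 40 classes had lower shares, 9 of them outside that interval, among them cytoplasmic ribosomal proteins with 12.9%. The peak caller's low threshold, the unknown depth and the single library per mark limit every value.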
